A study of Mus musculus with 23 samples.

Results

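A set of 10 genes that handle drugs, foreign compounds and reactive lipids was followed through all 23 libraries of proximal small intestine: Akr1b7, Cyp3a11, Cyp3a13, Cyp3a25, Ptgr1, Sult1d1, Ces2a, Ces2c, Abcb1a and Ugt2b5. They are 10 of the 16259 genes in the deposited table, and all 10 were among the 11939 genes that averaged 10 normalized reads or more and were tested. A normalized read is a read count divided by the library's size factor. The genes were chosen by measured values, since Akr1b7, Cyp3a11, Ptgr1 and Sult1d1 stood out between fasted and ad libitum fed mice. Feeding and drug contrasts that set those libraries against others are therefore given as values without a test. The model over all libraries also holds them, for the genotype term and for the estimate of spread, so those tests were repeated without the 4 libraries, a fit added after seeing the data, in which 0 members passed in each of the 6 contrasts.

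The libraries came from whole tissue of mice, all labelled male, that were Ddit4-/- (11 libraries, called knockout) or wild type (12 libraries). Ddit4 encodes a stress-induced inhibitor of mTORC1, the kinase complex that couples growth to nutrients. The groups were prefasted mice given doxorubicin, ad libitum fed mice given doxorubicin, untreated mice fasted for 24 h, untreated prefasted mice and untreated ad libitum fed mice. Prefasted mice were fasted for 24 h and then refed for the number of hours stated. Doxorubicin, a DNA-damaging chemotherapy, was given at 20 mg/kg into the peritoneum, and tissue was taken 2, 6, 12 or 24 h later, while untreated tissue was taken at 0 h (ad libitum and fasted) or after 2 or 6 h of refeeding. Each combination of genotype, feeding, drug and time had 1 library, and the knockout at 2 h of doxorubicin after ad libitum feeding was not analysed here. The age and strain of the mice and the making of the knockout allele are not given in the sources used here.

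Foreign compounds are handled in steps. Cytochrome P450 enzymes of the CYP3A family oxidize them, carboxylesterases such as Ces2a and Ces2c split their ester bonds, and aldo-keto reductases such as Akr1b7 reduce reactive aldehydes to alcohols. Ptgr1 reduces the carbon-carbon double bond of enones and enals. Sulfotransferases (Sult1d1) and glucuronosyltransferases (Ugt2b5) then attach polar groups, and the efflux pump P-glycoprotein, encoded in the mouse by Abcb1a and Abcb1b, returns compounds to the gut lumen and carries doxorubicin out of cells. The enterocytes of the proximal gut are the first site of this metabolism for anything swallowed. The nuclear receptor PXR (Nr1i2) is the classic inducer of CYP3A genes and of P-glycoprotein.

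The promoters of the 5 members that were furthest above ad libitum levels in fasted mice are printed because their transcripts were high together there. Each runs from 250 bases before to 50 bases after the RefSeq gene start (GRCm38.p6), read 5′ to 3′ on the gene's strand. Akr1b7 lies on the plus strand at chr6:34412112-34412411. The other promoters are on the minus strand, at chr5:145879805-145880104 for Cyp3a11, chr5:146009569-146009868 for Cyp3a25, chr4:58987029-58987328 for Ptgr1 and chr5:87568957-87569256 for Sult1d1. Capitals mark the nuclear receptor half-sites AGGTCA and AGTTCA on either strand.

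Akr1b7: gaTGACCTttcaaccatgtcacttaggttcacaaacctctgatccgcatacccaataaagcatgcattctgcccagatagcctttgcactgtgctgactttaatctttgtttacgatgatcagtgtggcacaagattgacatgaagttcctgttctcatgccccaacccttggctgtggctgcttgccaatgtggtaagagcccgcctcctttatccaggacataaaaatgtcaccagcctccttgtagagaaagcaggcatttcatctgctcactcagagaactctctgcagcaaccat

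Cyp3a11: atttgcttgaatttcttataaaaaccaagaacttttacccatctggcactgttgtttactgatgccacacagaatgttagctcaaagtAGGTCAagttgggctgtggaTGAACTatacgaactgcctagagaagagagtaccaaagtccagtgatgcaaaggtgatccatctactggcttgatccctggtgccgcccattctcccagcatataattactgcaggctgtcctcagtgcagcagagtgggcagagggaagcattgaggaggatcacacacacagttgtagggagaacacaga

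Cyp3a25: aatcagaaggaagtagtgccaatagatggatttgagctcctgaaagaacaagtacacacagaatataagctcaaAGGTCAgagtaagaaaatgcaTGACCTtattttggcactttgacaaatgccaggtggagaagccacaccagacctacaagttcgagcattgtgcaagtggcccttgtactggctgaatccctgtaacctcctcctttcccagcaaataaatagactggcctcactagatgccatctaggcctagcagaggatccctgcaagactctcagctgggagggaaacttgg

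Ptgr1: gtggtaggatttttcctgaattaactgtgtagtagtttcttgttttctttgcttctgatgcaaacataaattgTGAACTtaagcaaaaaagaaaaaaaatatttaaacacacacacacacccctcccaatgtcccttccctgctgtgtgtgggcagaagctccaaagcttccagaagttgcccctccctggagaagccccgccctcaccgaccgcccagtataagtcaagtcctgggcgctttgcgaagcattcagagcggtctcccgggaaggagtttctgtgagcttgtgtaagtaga

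Sult1d1: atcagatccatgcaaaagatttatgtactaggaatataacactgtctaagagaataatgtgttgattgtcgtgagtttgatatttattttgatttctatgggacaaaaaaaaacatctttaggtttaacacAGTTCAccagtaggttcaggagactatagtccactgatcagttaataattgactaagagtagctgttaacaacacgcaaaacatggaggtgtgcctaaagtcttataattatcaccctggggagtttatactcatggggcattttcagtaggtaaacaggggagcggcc

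Cyp3a25 had 2 copies of AGGTCA, at 176 bases before the start on the plus strand and 155 before it on the minus strand (the position of the leftmost base), and Cyp3a11 had 1 AGGTCA and 1 AGTTCA. Over all members, 5 of 10 promoters held AGGTCA, against 16.3% of 32851 promoters of the same length, and 4 held AGTTCA, against 14%. The glucocorticoid receptor half-site AGAACA was in 5 member promoters and 19% of all promoters. The HNF1 half-site GTTAAT was in 2 of 10 against 7.1%, and TATAAA in 2 of 10 against 13.6%. The PAR bZIP element TTATGTAA (0.938% of promoters) and the C/EBP palindrome TTGCGCAA (0.183%) were in no member window. The RefSeq start of Abcb1a lies upstream of the GENCODE one given below. These are matches of letters in one short window and say nothing of binding.

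The members differed widely in level. Per kilobase of exon (GENCODE, mm10), Cyp3a13 averaged 28700 normalized reads over the 23 libraries and Cyp3a11 13800, followed by Akr1b7 (4480), Sult1d1 (4470), Cyp3a25 (4220), Ces2a (3000), Ces2c (2620), Ptgr1 (2550), Abcb1a (794) and Ugt2b5 (265). On this scale Cyp3a13 stood above Cyp3a11, but their order depends on the length used. The exons of Cyp3a11 cover 5093 bases, while its longest coding transcript has 2344. For Cyp3a13 both lengths are 2956. Without the correction for length, Cyp3a13 was the 16th and Cyp3a11 the 23rd most abundant gene in the table.

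Of the members, 6 lie on chromosome 5. Cyp3a13 (137892932 to 137921619, 13 exon blocks) stands apart from Cyp3a11 (145854426 to 145879964, 13 exon blocks) and Cyp3a25 (145977194 to 146009618, 13 exon blocks), which are close neighbours on the minus strand. Sult1d1 (87554645 to 87569027) and Ugt2b5 (87124960 to 87140318) are also near each other, and Abcb1a spans 8660077 to 8748575 in 28 exon blocks. Akr1b7 is on chromosome 6 (34412334 to 34423142), Ptgr1 on chromosome 4 (58965439 to 58987119), and Ces2a (104734003 to 104741634) and Ces2c (104847068 to 104854483) on chromosome 8. Reads cannot always be given to one relative: of windows of 150 bases in the transcript, 19.5% in Ugt2b5 also occur in Ugt2b38, 4.41% of Abcb1a in Abcb1b, 3.35% of Ces2c in a Ces2d pseudogene and 0.702% of Cyp3a25 in Cyp3a59, while the other 6 members share none with their families. The libraries did not record strand, so antisense transcripts cannot be told apart.

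**Figure D1:**
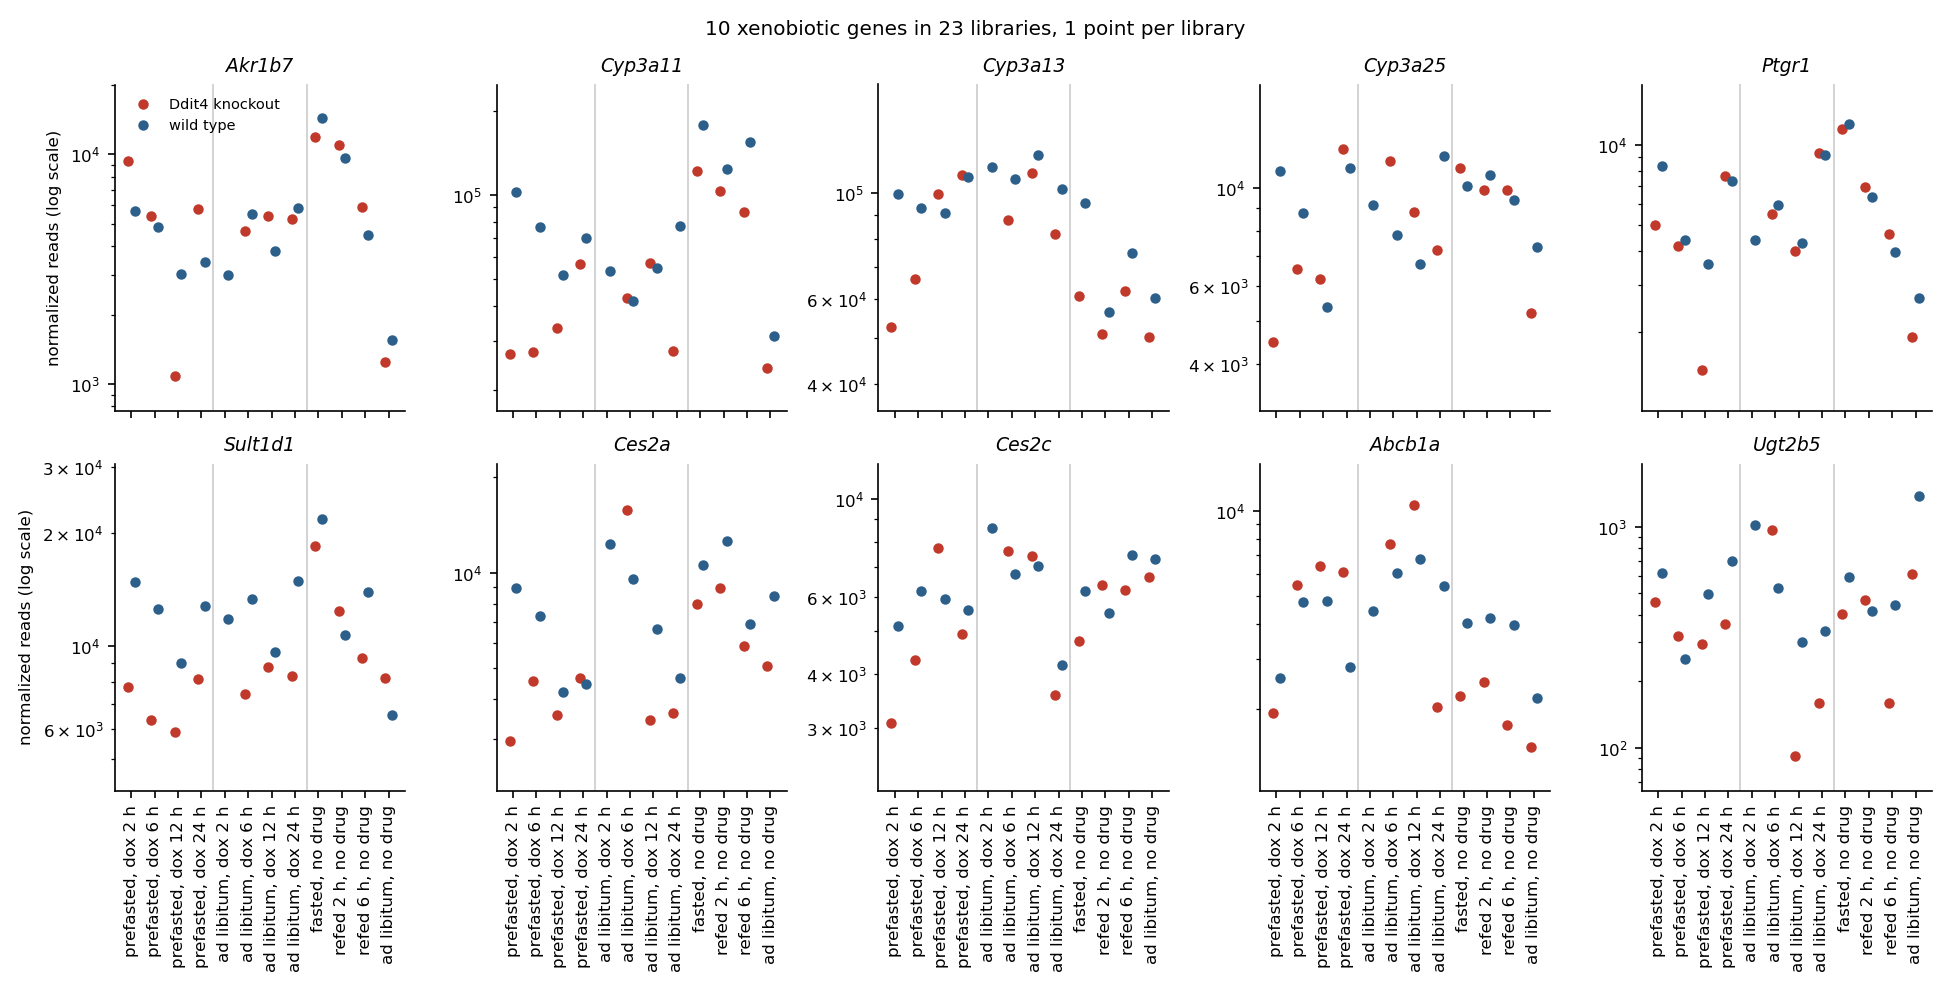
Normalized reads (log scale) of each gene in each of the 23 libraries; red points are knockout and blue points wild-type libraries, and grey lines separate prefasted doxorubicin, ad libitum doxorubicin and untreated libraries. Akr1b7 and Ptgr1 peak in the fasted untreated libraries, whereas Cyp3a13 and Abcb1a are highest after doxorubicin in ad libitum mice.

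Markers of the proximal intestine had reads in every library, at levels that varied. Pdx1 and Gata4, transcription factors of the upper intestine, had 54.5 to 744 and 2460 to 4840 normalized reads. Cybrd1 had 4.07 to 1600, Slc40a1 37.6 to 5070 and Onecut2 762 to 1650. The enterocyte marker sum was 992000 to 1990000 normalized reads. The members Cyp3a11, Cyp3a25 and Ces2a are also strong liver genes. The 8 hepatocyte markers summed to 17.1 to 431 normalized reads. Ahsg and Mup20 were at 0 in 20 libraries, Fgb in 19, Hpx in 13, Serpina1a in 8, Apoh in 3, Alb in 1 and Ttr in 0. Alb reached 276 and Ttr 98.9 normalized reads. Cyp3a11 had at least 24000 in every library. The part of liver transcripts in the members' values was not tested. Ddit4 averaged 1.83 ± 3.49 normalized reads in knockout libraries (SD, n = 11) and 278 ± 106 in wild-type libraries (SD, n = 12). In the knockout, 3 libraries (ad libitum, fasted and refed 2 h, all untreated) had at most 5 reads of Y-linked genes although labelled male, against at least 1088 in the other 20. Pancreatic transcripts were high in the fasted knockout library and in the wild-type library refed for 6 h. In the 4 wild-type prefasted doxorubicin libraries the title says untreated, and the drug label was used. Reads in genes ranged from 11418115 to 23428519 per library, and the scarcest member value, Ugt2b5 in the knockout at 12 h of doxorubicin after ad libitum feeding, rested on 98 reads.

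Between fasted and ad libitum mice without drug, the aldo-keto reductase Akr1b7 differed most among the members. Akr1b7, which reduces aldehydes formed from lipids, had 11900 normalized reads in the fasted knockout and 14400 in the fasted wild type, against 1250 in the ad libitum knockout and 1560 in the ad libitum wild type. The fasted libraries stood 9.56-fold above the ad libitum one in the knockout and 9.2-fold in the wild type, so the difference was similar in both genotypes. Cyp3a11, the main inducible CYP3A enzyme, had 121000 (knockout) and 177000 (wild type) in fasted mice, against 24000 (knockout) and 31200 (wild type) in ad libitum mice. That is 5.03-fold in the knockout and 5.67-fold in the wild type.

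Ptgr1, a reductase of prostaglandin and leukotriene metabolites, had 11500 (knockout) and 12000 (wild type) in fasted libraries, against 1910 (knockout) and 2680 (wild type) ad libitum. Sult1d1, a sulfotransferase for catechols such as dopamine, had 18400 and 21800 in the fasted knockout and wild type, against 8200 and 6550 in the ad libitum knockout and wild type. All fasted libraries stood above all ad libitum ones for these 4 genes. The log2 differences of the group means on the log2(value + 1) scale were 3.23 for Akr1b7, 2.42 for Cyp3a11, 2.38 for Ptgr1 and 1.45 for Sult1d1. Smaller differences of the same sign were 0.77 for Cyp3a25, 0.74 for Abcb1a and 0.47 for Cyp3a13, each without overlap.

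Not all steps of the pathway moved that way. Ugt2b5 had 402 (knockout) and 590 (wild type) normalized reads in fasted mice, against 607 (knockout) and 1370 (wild type) ad libitum, a log2 difference of -0.91. Ces2c had 4750 and 6190 in the fasted knockout and wild type, against 6640 and 7320 in the ad libitum knockout and wild type (log2 difference -0.36). Ces2a overlapped between the groups, with 8000 and 10600 in fasted and 5080 and 8450 in ad libitum libraries (knockout first). In all, 7 of 10 members lay above the ad libitum libraries in both fasted ones, where 19.4% of all tested genes did, and 2 lay below, where 19.5% did. As the genes were chosen partly on this contrast, the counts are a description. The fasted and ad libitum groups also differed in clock output genes such as Dbp and Per1, whose list level was -0.97 in fasted and -1.90 in ad libitum libraries (log2, relative to the mean of all libraries), and 6 of its 10 genes stood above in both fasted libraries. Of 5 Paneth markers, 4 stood below in both, as did 2 of 5 proximal and 2 of 4 smooth muscle markers. Of 3 hepatocyte markers tested, 2 stood above in both (median log2 0.92), as did 3 of 12 enterocyte and 1 of 5 T cell markers. The 9 pancreatic markers had a median log2 difference of 3.42, with 0 above and 0 below in both. The part of these differences in the members' values was not tested. In these bulk libraries fewer cells of a type and less RNA per cell cannot be told apart.

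**Figure D2:**
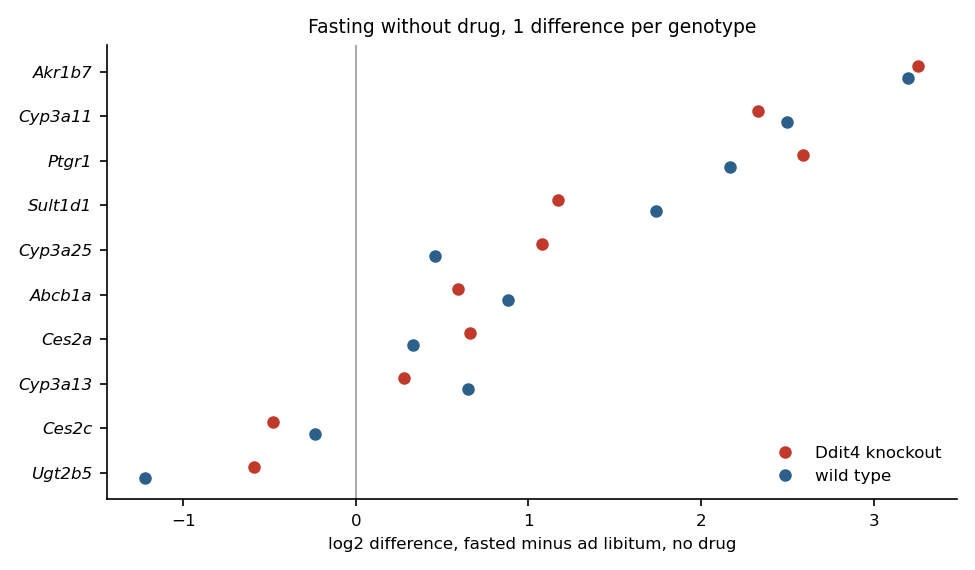
Log2 difference (fasted minus ad libitum, untreated) of each gene within the knockout pair (red) and the wild-type pair (blue), 1 library per group and genotype. Akr1b7 stands near 3.2 in both genotypes, and Ces2c and Ugt2b5 lie below 0 in both.

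Other genes of the pathway lay on both sides in the same contrast. Of 2 other CYP3A genes with enough reads, 1 stood above the ad libitum libraries in both fasted ones and 0 below. The counts above and below were 4 and 1 of 11 for CYP2 and CYP4 enzymes, 3 and 4 of 10 for other aldo-keto and carbonyl reductases, 2 and 3 of 7 for other carboxylesterases, 2 and 2 of 8 for other glucuronosyltransferases and 2 and 0 of 4 for other sulfotransferases. They were 2 and 5 of 14 for glutathione transferases, 0 and 4 of 8 for transporters and 4 and 3 of 12 for receptors and partners. Their median log2 differences lay between -0.23 (transporters) and 1.04 (CYP3A genes), beside 0.75 for the members.

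After food returned, the members took different courses. Akr1b7 had 5910 (knockout) and 4440 (wild type) normalized reads after 6 h of refeeding, against 11000 (knockout) and 9640 (wild type) after 2 h. Ptgr1 had 4650 and 3980 in the knockout and wild type after 6 h, against 6950 and 6350 after 2 h. Cyp3a11 had 86600 (knockout) and 154000 (wild type) after 6 h, against 103000 (knockout) and 124000 (wild type) after 2 h. Akr1b7 and Ptgr1 were thus lower at 6 h in each genotype, while every Cyp3a11 value was above both ad libitum libraries. Against the fasted libraries, 5 of 10 members lay below in both libraries refed for 6 h (Akr1b7, Cyp3a25, Ptgr1, Sult1d1 and Ces2a), where 25% of all genes did, and 1, Ces2c, lay above, where 23.2% did.

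Refeeding for 6 h was tested against refeeding for 2 h, in untreated libraries outside the contrast that chose the genes. Tests used limma on log2(value + 1) over all genes, with calls at an adjusted p under 0.05. With 1 library per condition and genotype the p-values reflect variation among the libraries sequenced, which may be partly technical. In the model over all libraries that spread comes from how the knockout minus wild-type difference varies over conditions. A genotype effect that depends on condition is thus part of it. For Akr1b7 the log2 difference had a 95% interval from -1.80 to -0.21 (2 libraries per time, limma adjusted p = 0.097). It was -0.63 ± 0.28 for Ptgr1 (SE, adjusted p = 0.16) and -0.74 ± 0.35 for Ces2a (adjusted p = 0.19). In each of the 3 genes both libraries at 6 h lay below both at 2 h, but the share of all genes that did so was not counted. The knockout library refed for 2 h had 0 Y-linked reads and the one refed for 6 h had 1190. The part of that feature in these differences was not tested. Cyp3a11 differed by 0.03 ± 0.40, with a 95% interval from -0.83 to 0.88. Limma called 0 members, while 9% of all genes passed, and 3 members had an unadjusted p under 0.05, as did 26.8% of all genes (edgeR called 0 members and DESeq2 1, Akr1b7). Akr1b7 passed without the knockout or without the wild-type prefasted library at 12 h of doxorubicin (limma adjusted p = 0.025 each) and without the 4 libraries with conflicting titles (adjusted p = 0.014), libraries that enter only the estimate of spread. Over all 36 alternatives it passed in 4, and its log2 difference ran from -1.22 to -0.79. Marker transcripts moved as well: 7 of 8 crypt and cycling markers, 4 of 5 Paneth markers and 4 of 5 fat markers were called lower. The proximal marker Gata4 was called lower and the plasma cell marker Jchain higher, both named after their values were seen. The Paneth markers summed to 2750 and 5740 normalized reads at 6 h, against 19200 and 44300 at 2 h. All 9 pancreatic markers had positive estimates (median log2 5.78), with 0 called. The part of these in the members' differences was not tested.

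Of the 76 pathway genes tested in this contrast, 3 passed (3.95%), beside 9% of all genes. Cyp4f14, which degrades leukotrienes, rose (log2 0.66 ± 0.17, limma adjusted p = 0.027), as did the aryl hydrocarbon receptor Ahr (0.98 ± 0.29, adjusted p = 0.049). The efflux pump gene Abcc1 fell (-4.17 ± 0.81, adjusted p = 0.009). These 3 were named after their values were seen, and leaving out 1 library lost the call in 16 of 23 fits for Ahr. It was lost in 4 for Cyp4f14 (each untreated refed library) and in 2 for Abcc1 (either library refed for 2 h).

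In ad libitum mice given doxorubicin, Akr1b7, Ptgr1 and Cyp3a13 were above the untreated levels in every library. Akr1b7 had 4650, 5410 and 5250 normalized reads at 6, 12 and 24 h in the knockout and 2990, 5480, 3810 and 5840 at 2, 6, 12 and 24 h in the wild type, against 1250 (knockout) and 1560 (wild type) untreated. Cyp3a13, a CYP3A enzyme of the intestine, had 82200 to 120000 (median 107000) over the 7 libraries, against 50200 and 60400 in the untreated knockout and wild type. Ptgr1 had 4020 to 9330 (median 5510), against 1910 and 2680 untreated, with its highest values at 24 h (9330 in the knockout and 9150 in the wild type).

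These 3 were the members with all 7 doxorubicin libraries above the untreated pair, where 11.5% of all genes were above, and 0 members lay below in all 7, where 11.7% of genes did. P-glycoprotein (Abcb1a) had 2030 to 10500 (median 6030), against 1470 and 2180 untreated, and only the knockout at 24 h (2030) fell within the untreated range. At 12 h it had 10500 in the knockout and 6760 in the wild type, the highest value of each genotype in the study. Its copy Abcb1b, the other P-glycoprotein gene, had at most 33.6 normalized reads in any library. Cyp3a11 had 27500 to 77100 (median 53300), against 24000 and 31200, so its log2 difference was 0.83 after doxorubicin beside 2.42 with fasting. Both contrasts share the untreated ad libitum libraries, and no ad libitum library without drug at 2 to 24 h was analysed here. The clock output list stood at 0.68 after doxorubicin against -1.90 untreated, with 8 of 10 genes above in all 7 libraries. All 5 Paneth markers and 5 of 8 crypt markers were below in all 7, 6 of 12 enterocyte markers were above, and the part of these in the members' values was not tested.

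In prefasted mice doxorubicin was compared with no drug at 2 and 6 h, with libraries outside the choice of genes. Cyp3a11 had 26800 (2 h) and 27300 (6 h) normalized reads in knockout and 102000 and 76400 in wild-type doxorubicin libraries, against 103000 (2 h) and 86600 (6 h) in knockout and 124000 and 154000 in wild-type untreated libraries. It was lower with the drug in 4 of 4 matched pairs, although the groups overlapped. The log2 difference was -1.23 ± 0.29 (SE, 4 libraries per group, 95% interval -1.83 to -0.62), which missed the threshold (limma adjusted p = 0.063). Ces2c was also lower in 4 of 4 pairs (-0.49 ± 0.16, adjusted p = 0.17), with 3090 to 6190 normalized reads with the drug, against 5500 to 7480 without. Ces2a (-0.60 ± 0.25, adjusted p = 0.27) was lower in 3 of 4. Cyp3a13 was higher with the drug in 4 of 4 pairs by a small amount (0.32 ± 0.18, adjusted p = 0.41), and Akr1b7 differed by -0.25 ± 0.26 (95% interval -0.81 to 0.31).

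Limma called 0 markers of pancreatic, crypt, Paneth or liver cells in the same contrast, but their estimates shared a sign. All 9 pancreatic markers had negative estimates (median log2 -3.67), as had all 8 crypt (-0.65), all 5 Paneth (-0.44) and all 3 tested hepatocyte markers (-0.97). The pancreatic markers summed to 396 to 726 normalized reads with the drug, against 359 to 187000 without, and the hepatocyte markers to 34.6 to 86.4, against 33.2 to 431. Their part in the members' values was not tested. Without the 2 libraries with high pancreatic transcripts (the fasted knockout and the wild type refed for 6 h) Cyp3a11 differed by -1.20 (limma adjusted p = 0.087).

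Limma called 0 members and 0.628% of all genes, and 3 members had an unadjusted p under 0.05, as did 15.2% of all genes (edgeR called 0 members, DESeq2 1). Cyp3a11 passed in DESeq2 (adjusted p = 0.0019) and with quantile normalization in limma (adjusted p = 0.047). Without the 4 libraries whose titles conflict its log2 difference was -1.83 (limma adjusted p = 0.054), and leaving out 1 library moved it between -1.56 (without the wild-type doxorubicin library at 2 h) and -0.89 (without the knockout one at 2 h). Without the libraries with few Y-linked reads it was -1.09 (adjusted p = 0.33). The PXR gene Nr1i2 rose (0.78 ± 0.16, adjusted p = 0.037): it had 3320 (2 h) and 2920 (6 h) normalized reads in knockout and 2910 and 1980 in wild-type doxorubicin libraries, against 1990 (2 h) and 1360 (6 h) in knockout and 1880 and 1270 in wild-type untreated ones. The carboxylesterase Ces2g fell (-0.81 ± 0.15, adjusted p = 0.026). Of the 9 pathway lists, these were the 2 calls, 1 of 12 receptors and partners and 1 of 7 carboxylesterases, and both were named after their values were seen. The calls were lost in 15 (Nr1i2) and 6 (Ces2g) of 23 fits that left out 1 library. The clock gene Per1, also named after its values were seen, rose in the same contrast (1.70 ± 0.27, limma adjusted p = 0.015).

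Whether prefasting altered the members after doxorubicin was tested in 7 pairs matched on genotype and time. Limma called 0 of 10 members, 0 of them at an unadjusted p under 0.05, and 0% of all genes (766 genes had an unadjusted p under 0.05, and edgeR called 0 genes and DESeq2 21, with 0 members in either). Akr1b7 had 1090 to 9350 normalized reads in the 8 prefasted libraries, 1 of which had no partner (median 5100), against 2990 to 5840 in the 7 ad libitum ones (median 5250), a log2 difference of -0.33 ± 0.28 (SE, 7 pairs, adjusted p = 0.81). Cyp3a11 had 26800 to 102000 (median 54000), against 27500 to 77100 (median 53300), with a difference of 0.17 ± 0.23 and a 95% interval from -0.33 to 0.68. The lowest p was that of Ces2a, lower in prefasted mice in 5 of 7 pairs (-0.42 ± 0.20, 95% interval -0.85 to 0.01, adjusted p = 0.75). Sult1d1, Ptgr1 and Abcb1a were lower in 6 of 7 pairs each, with log2 differences of -0.13 ± 0.11, -0.32 ± 0.20 and -0.31 ± 0.24.

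For the difference between genotypes in the prefasting effect, limma called 0 members and 0% of all genes (225 genes and 0 members at an unadjusted p under 0.05, with 0 calls in edgeR and in DESeq2). The 95% intervals were wide, for example -1.50 to 0.11 for Ptgr1 and -1.81 to 0.69 for Akr1b7. Of the pathway lists, 0 genes passed in either test.

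**Figure D3:**
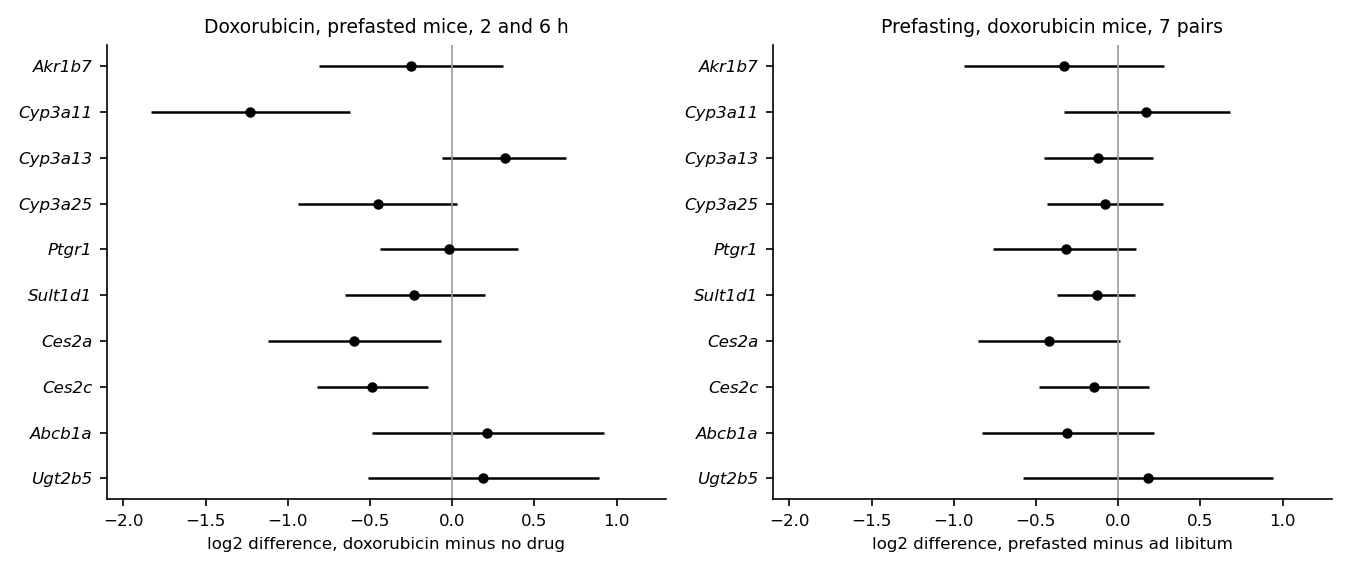
Limma log2 differences with 95% intervals for doxorubicin minus untreated in prefasted mice at 2 and 6 h (left, 4 libraries per group) and prefasted minus ad libitum after doxorubicin (right, 7 pairs). On the left Cyp3a11, Ces2a and Ces2c lie wholly below 0, and on the right every interval includes 0.

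Late libraries (12 and 24 h after doxorubicin) were then set against early ones (2 and 6 h). In prefasted mice the hours after the drug equalled the hours of refeeding. No untreated refed library at 12 or 24 h was analysed here. Time after the drug and length of refeeding thus cannot be told apart in prefasted mice, nor in their difference from ad libitum mice. In ad libitum mice the conjugating enzyme Ugt2b5 had 91.6 and 159 normalized reads at 12 and 24 h in the knockout and 300 and 337 in the wild type, against 963 at 6 h in the knockout and 1020 and 529 at 2 and 6 h in the wild type. The late libraries all lay below the early ones. The log2 difference, late minus early, was -1.96 ± 0.37 (SE, 4 late and 3 early libraries, 95% interval -2.75 to -1.18, limma adjusted p = 0.051). Ces2a, which splits ester drugs, had 3450 and 3630 late in the knockout and 6640 and 4680 in the wild type, against 15700 early in the knockout and 12300 and 9530 in the wild type, again without overlap (-1.35 ± 0.28, adjusted p = 0.087). The share of all genes without overlap in this contrast was not counted. Ces2c overlapped (-0.53 ± 0.18, adjusted p = 0.45): it had 7420 and 7040 at 12 h but 3580 and 4190 at 24 h, knockout first.

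Limma called 0 members in ad libitum mice and 0.0921% of all genes, and 3 members had an unadjusted p under 0.05, as did 7.93% of all genes, while edgeR called 1 (Ugt2b5, adjusted p = 0.048) and DESeq2 2 (Ugt2b5, adjusted p = 6.3e-05, and Ces2a, adjusted p = 0.00033). Without the wild-type ad libitum library at 6 h both passed in limma (Ugt2b5 -2.33 and Ces2a -1.64, adjusted p = 0.022 each). The early group had no knockout library at 2 h, so the genotype term enters this contrast. Prefasted libraries bear on it through that term and the estimate of spread, and leaving out 1 of them also brought calls in limma. Without either 6 h one Ugt2b5 passed (adjusted p = 0.049), and without either 2 h one Ces2a passed (adjusted p = 0.034 without the wild type and 0.035 without the knockout). Over all 35 alternatives, however, Ugt2b5 passed in only 7 and Ces2a in only 5, although both estimates stayed below 0 in each. The Ugt2b5 difference ran from -2.33 to -1.52, and the Ces2a difference at its weakest was also smaller in size than the -1.35 of the main fit.

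In prefasted mice the lowest p among the members was that of Akr1b7, which had 1090 and 5800 normalized reads at 12 and 24 h in the knockout and 3030 and 3400 in the wild type, against 9350 and 5390 at 2 and 6 h in the knockout and 5700 and 4810 in the wild type. All but the knockout at 24 h lay below the early libraries, and the log2 difference was -1.10 ± 0.26 (SE, 4 libraries per group, 95% interval -1.66 to -0.54, limma adjusted p = 0.13). Its companion Ptgr1 was lowest at 12 h (1440 in the knockout and 3580 in the wild type) and back at 7660 and 7290 at 24 h, so the late and early groups overlapped (-0.35 ± 0.20, adjusted p = 0.56). Cyp3a13 (0.43 ± 0.18) and Ces2c (0.39 ± 0.16) were higher late, with adjusted p = 0.38 and 0.37.

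In prefasted mice limma called 0 members and 0.0921% of all genes, and 3 members had an unadjusted p under 0.05, as did 10.9% of all genes (edgeR 0 members, DESeq2 1, Akr1b7, adjusted p = 0.015). Without the wild-type prefasted library at 12 h Akr1b7 passed in limma (-1.52, adjusted p = 0.012), as it did without the 4 libraries with conflicting titles (-1.50, adjusted p = 0.013). Over all 36 alternatives Akr1b7 passed in 3, and its log2 difference ran from -1.52 to -0.69. Of the pathway lists 1 gene passed, Cyp3a44, a CYP3A relative named after its values were seen (-1.99 ± 0.35, adjusted p = 0.035), and leaving out 1 library lost it in 13 of 23 fits. The crypt stem cell gene Olfm4, named after its values were seen, fell late in both feeding groups (-3.41 ± 0.44 prefasted, limma adjusted p = 0.0052, and -2.99 ± 0.50 ad libitum, adjusted p = 0.037). The smooth muscle gene Myh11, also named after its values were seen, fell late in prefasted mice (-2.15 ± 0.37, adjusted p = 0.035). All 4 smooth muscle markers tested had negative estimates in both feeding groups (median log2 -1.16 prefasted and -1.49 ad libitum), and all 9 pancreatic markers had positive ones (2.32 prefasted and 1.87 ad libitum). In prefasted mice all 8 crypt (-0.96) and all 5 Paneth markers (-1.15) had negative estimates, and the 5 fat markers tested had negative ones in both feeding groups (-0.82 prefasted and -2.93 ad libitum). The part of these in the members' values was not tested.

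The difference between those 2 time effects, prefasted minus ad libitum, was 2.14 ± 0.50 for Ugt2b5 (limma adjusted p = 0.36), -1.46 ± 0.40 for Akr1b7 (adjusted p = 0.51), 0.93 ± 0.24 for Ces2c (adjusted p = 0.40), 0.98 ± 0.37 for Ces2a (adjusted p = 0.75) and -0.71 ± 0.30 for Ptgr1 (adjusted p = 0.77). These 5 members had an unadjusted p under 0.05, as did 6.3% of all genes, but limma called 0 members and 0.0251% of all genes (edgeR 0 members, DESeq2 1, Ugt2b5, adjusted p = 0.01). Akr1b7 passed without the wild-type prefasted library at 12 h (-1.84, adjusted p = 0.043) and without the 4 libraries with conflicting titles (-1.86, adjusted p = 0.045). Over all 35 alternatives it passed in 2, and its log2 difference ran from -1.86 to -1.01.

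**Figure D4:**
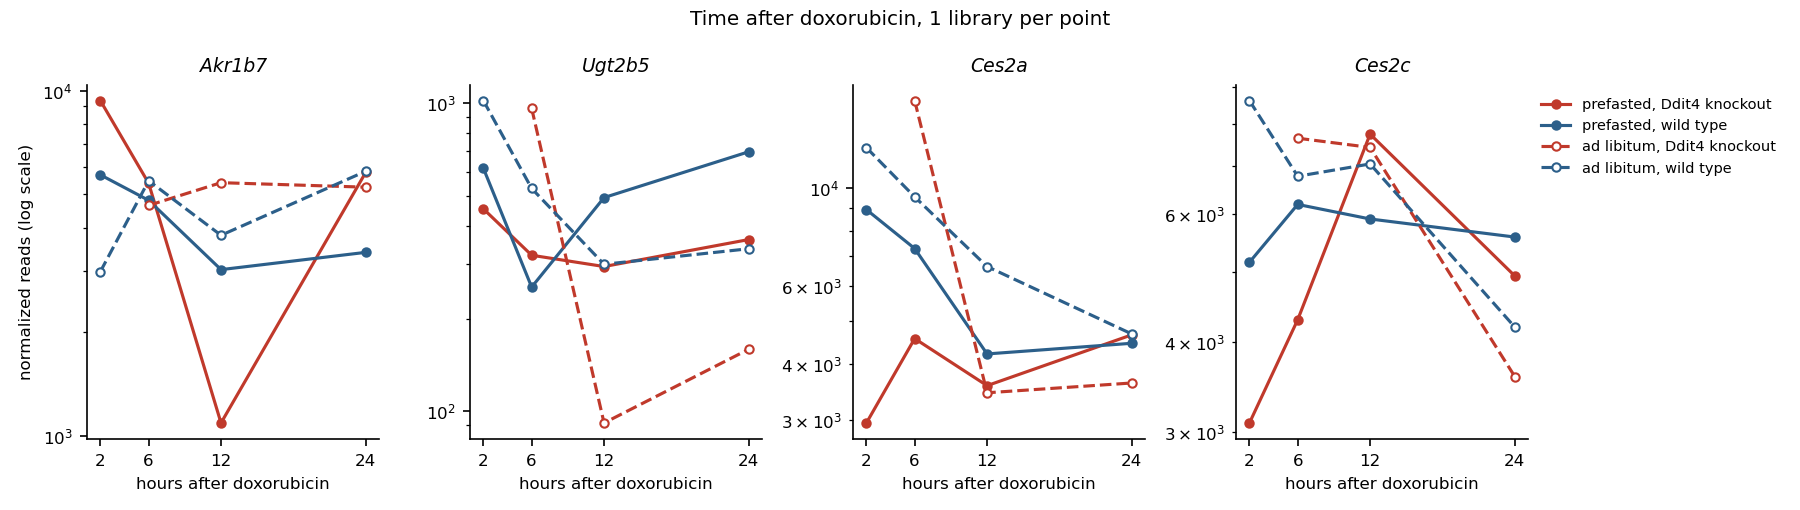
Normalized reads (log scale) of 4 genes against hours after doxorubicin, 1 library per point; filled points and solid lines are prefasted, open points and dashed lines ad libitum, red knockout and blue wild type. Ugt2b5 and Ces2a are lower at 12 than at 6 h in both ad libitum genotypes, and Akr1b7 reaches 1090 at 12 h in the prefasted knockout.

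Several members had lower values in Ddit4 knockout than in wild-type libraries, and none passed the threshold. Cyp3a11 had 24000 to 121000 normalized reads in the 11 knockout libraries (median 42700), against 31200 to 177000 in the 12 wild-type libraries (median 73300). It was lower in the knockout in 9 of 11 matched pairs, and the widest gap was at 2 h of doxorubicin after prefasting, with 26800 in the knockout and 102000 in the wild type. The title of that wild-type library says untreated. The log2 difference of Cyp3a11 was -0.71 ± 0.17 (SE, 95% interval -1.07 to -0.34, limma adjusted p = 0.084). Over all 36 alternatives it ran from -0.82 to -0.49, and Cyp3a11 passed in 2. Sult1d1 was lower in all 7 doxorubicin pairs, with 5880 to 8800 in knockout (median 7790), against 9000 to 14900 in wild-type doxorubicin libraries (median 12700). The share of all genes that separated in this way was not counted. The 4 libraries with conflicting titles are among these wild-type ones. Without drug Sult1d1 was lower in 2 of 4 pairs, and over all libraries the difference was -0.48 ± 0.12 (limma adjusted p = 0.09).

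Ugt2b5 (-0.61 ± 0.20, lower in 8 of 11 pairs, adjusted p = 0.20), Ces2a (-0.45 ± 0.15, 9 of 11, adjusted p = 0.21) and Cyp3a13 (-0.30 ± 0.11, 9 of 11, adjusted p = 0.24) lay on the same side. Akr1b7 was higher in 6 and lower in 5 pairs (0.03 ± 0.16), with a 95% interval from -0.31 to 0.36. Abcb1a was lower in the knockout in 4 of 4 untreated pairs, with 1470 to 2490 normalized reads, against 2180 to 4190 in the wild type, and higher in 5 of 7 doxorubicin pairs. In 3 of those 4 untreated pairs the knockout library is one with few Y-linked reads, whereas no doxorubicin library is, so the drug state and that feature largely coincide. The remaining untreated pair, refed for 6 h, had 1190 Y-linked reads in the knockout. Its Abcb1a values were 1750 (knockout) and 3970 (wild type), a log2 difference of -1.19. That is 1 pair, and its wild-type library had high pancreatic transcripts. Over all libraries the genotype difference of Abcb1a was -0.23 ± 0.20 (limma adjusted p = 0.71), and without the 3 libraries with few Y-linked reads it was -0.04 (adjusted p = 0.97). The difference between the drug states was not tested.

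Between genotypes limma called 0 members and 0.578% of all genes, and 5 members had an unadjusted p under 0.05, as did 12% of all genes (edgeR 0 members, DESeq2 2: Cyp3a11, adjusted p = 0.0015, and Sult1d1, adjusted p = 0.0079). Sult1d1 passed in limma without the 3 libraries with few Y-linked reads (-0.70, adjusted p = 0.016) and without either untreated ad libitum library (-0.56, adjusted p = 0.041 each), while without the 4 libraries with conflicting titles its difference was -0.30 (adjusted p = 0.58). With quantile normalization Cyp3a11, Sult1d1 and Cyp3a13 passed. Without the fasted and ad libitum untreated libraries, a fit added after seeing the data, 0 members passed (Cyp3a11 -0.76, adjusted p = 0.16, and Sult1d1 -0.60, adjusted p = 0.063). Negative estimates, with 0 called, were also found for markers of other cells: all 9 pancreatic (median log2 -2.74), all 4 smooth muscle (-0.67) and all 3 hepatocyte markers tested (-0.41; Alb -1.82 ± 0.42, adjusted p = 0.068), and 9 of 10 clock output genes (-0.35). The pancreatic markers summed to 359 to 70200 normalized reads in knockout libraries, against 396 to 187000 in wild type, and the hepatocyte markers to 33.2 to 121, against 17.1 to 431. Their part in the members' values was not tested. Of the pathway lists, 3 genes fell in the knockout: the esterase Ces1g (-0.88 ± 0.18, adjusted p = 0.034) and the glutathione transferases Gsta3 (-1.12 ± 0.24, adjusted p = 0.043) and Gstm2 (-0.88 ± 0.19, adjusted p = 0.047). They were 3 of 76 pathway genes (3.95%), namely 1 of 7 carboxylesterases and 2 of 14 glutathione transferases, and 0 genes of the other 7 pathway lists passed. Leaving out 1 library lost the call in 18 of 23 fits for Ces1g and Gsta3 and in 20 for Gstm2, with differences that stayed below 0 in each. Without the fasted and ad libitum untreated libraries Ces1g passed (adjusted p = 0.033) and Gsta3 and Gstm2 did not (0.17 and 0.091).

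**Figure D5:**
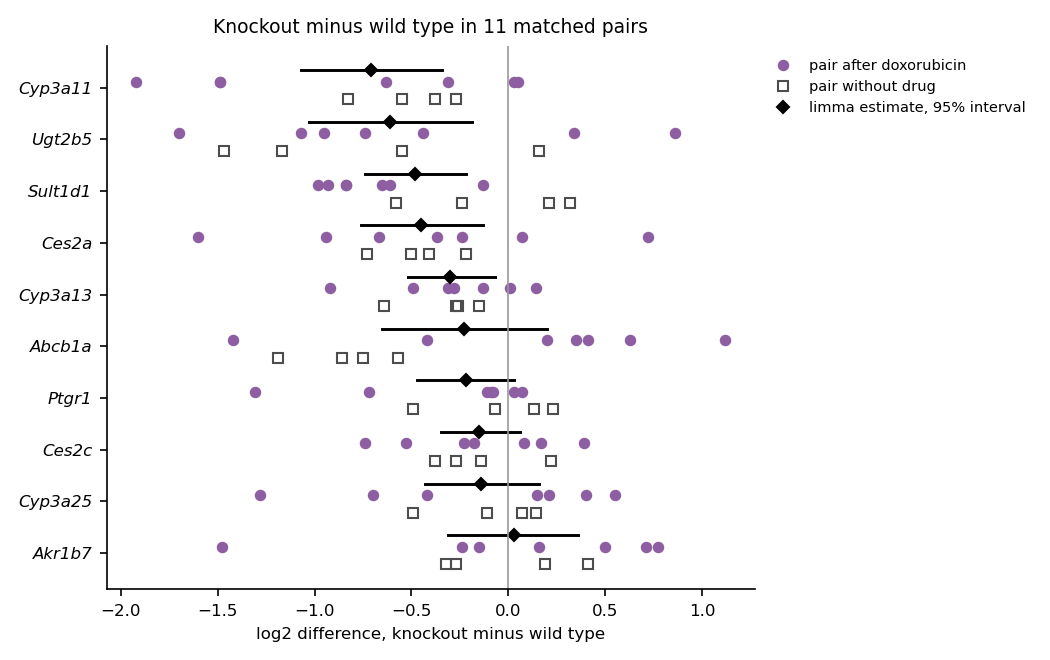
Log2 difference, knockout minus wild type, of each gene in the 11 matched pairs (filled circles after doxorubicin, open squares untreated), with the limma estimate and its 95% interval as a black diamond and bar. Cyp3a11 lies below 0 in 9 of 11 pairs, and Abcb1a is below 0 in all 4 untreated pairs.

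Across the 23 libraries the members formed loose pairs, given as a description because libraries share feeding, drug and time. Akr1b7 followed Ptgr1 (Pearson r = 0.83, Spearman rho = 0.74) and Cyp3a11 followed Sult1d1 (r = 0.81, rho = 0.77) and its neighbour Cyp3a25 (r = 0.69, rho = 0.68), while Cyp3a13 went with Abcb1a (r = 0.68, rho = 0.69) and hardly with Cyp3a11 (r = 0.07, rho = 0.07). Akr1b7 and Ces2c ran against each other (r = -0.46, rho = -0.54).

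Among 9377 other named genes with a mean of at least 50, those most like Akr1b7 were Eif4ebp3, a translation inhibitor (r = 0.77), the fat oxidation enzymes Eci2 (0.75) and Acaa1a (0.74), the cold-inducible RNA-binding protein gene Rbm3 (0.73) and the aminopeptidase Lap3 (0.71). Those most like Cyp3a11 were the amidoxime reductase Mtarc1 (0.84), the dehydrogenases Aldh6a1 (0.82) and Aldh3a2 (0.72), Malrd1 (0.80) and the brush border protease Mep1a (0.76). By rank, Eci2 led for Akr1b7 (rho = 0.81) and Malrd1 for Cyp3a11 (rho = 0.84). The places of the others for Akr1b7 by Spearman rho were 9 for Rbm3, 22 for Acaa1a, 86 for Eif4ebp3 (rho = 0.61) and 96 for Lap3 (rho = 0.6).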

How the data were processed

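RNA sequencing of poly-A RNA from whole proximal small intestine gave 1 table of 16259 genes in 23 libraries. The values are a signal that the authors deposited as normalized read counts; per the submitters' processing notes the tools were Trim Galore, STAR and DESeq2 with mm10. Dividing each library by the value of 1 read (0.705 to 1.672) returned whole reads for 100% of values within 0.01. Genes with a mean of 10 or more were tested as log2(value + 1) with limma 3.58.1 (R 4.3.3), Benjamini-Hochberg adjusted over all 11939 genes, at a threshold of 0.05. Feeding after doxorubicin was fitted in 7 pairs matched on genotype and time, with the pair as a block. Genotype and the other contrasts came from 1 model over all 23 libraries with a term for each of the 12 conditions and 1 for genotype. Alternatives included DESeq2 1.42.0 and edgeR 4.0.16, both given the whole reads, other pseudocounts, filters and scalings, and leaving out libraries (leaving out the 4 fasted and ad libitum untreated ones was chosen after seeing the data); the fit was tested on simulated data. The genes and lists were chosen with earlier results of these data known. The text names the 10 members, the 5 genes most like Akr1b7 and Cyp3a11, and up to 3 called genes per pathway list in the feeding and genotype tests. Other called genes are marked as named after their values were seen, and some marker and family genes are named to describe the libraries. The knockout at 2 h of doxorubicin after ad libitum feeding was not analysed here.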

Additional observations from a re-analysis of the deposited data

Results flagged for a closer look

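Among the 4 untreated prefasted libraries, Ugt2b5 stood apart in the knockout refed for 6 h, with 159 normalized reads against 417 to 465 in the other 3. On the log2 scale its gap to the nearest library was 0.898 of the range of the group, above the critical value of 0.829. In all, 60 combinations of gene and group were looked at, and chance flags about 1 in 20 groups.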

How the results depend on the processing

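No alternative reversed a called result, and 53 of 80 member estimates kept 1 sign in every alternative. Prefasting after doxorubicin and its difference by genotype called 0 members in all 26 and 23 alternatives. With no replicate block for the pairs, prefasting after doxorubicin also called 0 members and 0 genes. For genotype, members called were 3 with quantile normalization, 2 with DESeq2, 1 without the libraries with few Y-linked reads and 0 to 1 when 1 library was left out. For doxorubicin in prefasted mice they were 1 with quantile normalization and 1 with DESeq2. For refeeding they were 1 with DESeq2, 2 without the libraries with conflicting titles (Akr1b7 and Ptgr1, adjusted p = 0.014 and 0.033) and 0 to 1 with 1 library left out. For late against early libraries in prefasted mice they were 1 with DESeq2, 1 without the conflicting titles and 0 to 1 with 1 library left out. In ad libitum mice they were 1 with a pseudocount of 0.5, 1 with edgeR, 2 with DESeq2, 2 with array weights and 0 to 2 with 1 library left out. For the difference between those time effects they were 1 with DESeq2, 1 without the conflicting titles and 0 to 1 with 1 library left out. Without the fasted and ad libitum untreated libraries, a setting chosen after seeing the data, the 6 contrasts of the model over all libraries called 0 members each, and the pathway calls of Nr1i2, Ahr and Cyp3a44 were lost as well (adjusted p = 0.069, 0.062 and 0.066). The cause was not tested. With 1 library per condition and genotype, no spread within a condition could be measured.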
